A study of Rattus norvegicus with 8 samples.

Results

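The genes of epithelial sodium absorption and of proton-for-potassium exchange were measured in the middle colon of rats given cocoa, cocoa fibre or inulin. The set was named as 9 genes. It held the 3 subunits of the epithelial sodium channel (Scnn1a, Scnn1b and Scnn1g), the proton-potassium pump Atp12a, the sodium pump subunit Atp1b1, the mineralocorticoid receptor Nr3c2, the cortisol-inactivating enzyme Hsd11b2, the kinase Sgk1 and the ubiquitin ligase Nedd4l. No probe of the array was matched to Nedd4l, so it is not analysed here. The other 8 genes, read by 9 probes, were all among the 19901 genes tested.

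Colon tissue came from 16 female Wistar rats, 4 in each diet group, all 6 weeks old after 3 weeks on the diets, and a 5 mm piece of the middle colon was taken from each. REF rats ate the standard rodent diet. C10 rats ate a diet with cocoa, which brought both polyphenols and fibre. CF rats received the fibre of cocoa with very little polyphenol, and I rats received chicory inulin as soluble fibre in the amount that C10 rats received from cocoa. All 4 diets supplied the same energy and macronutrients. RNA of 2 rats was labelled with the dyes Cy3 and Cy5 and hybridised to each of 8 Agilent arrays, so every value below is the log2 signal of a probe in a single rat. C10 rats were all on arrays 1 to 4 and I rats all on arrays 5 to 8, while REF and CF rats were on both sets, so C10 and I met only through REF and CF. Signals differ between probes for reasons other than transcript number, so the levels of different genes were not compared as amounts of transcript. Where a probe or gene is called the brightest of a list, or signals of a list are summed, only the signal is meant, and the brightest probes weigh most in a sum.

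In the distal part of the rat colon, sodium enters the surface cell through the epithelial sodium channel, a heteromer of alpha, beta and gamma subunits in the apical membrane, and leaves through the sodium-potassium pump of the basolateral membrane. Atp12a encodes the catalytic subunit of the colonic proton-potassium pump, which takes up potassium from the lumen in exchange for protons. Aldosterone acts through the mineralocorticoid receptor to raise channel and pump activity. Hsd11b2 protects that receptor from glucocorticoids, Sgk1 is an early transcript of the hormone, and the kinase it encodes phosphorylates the Nedd4l protein so that less channel is removed from the membrane. In rats on an ordinary diet the beta and gamma channel transcripts are low in the colon, whereas they are strongly induced by aldosterone.

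Markers of epithelium and colon were read beside the tissue label. All 8 epithelial markers and all 5 colon epithelium markers that had a matched probe passed the filter on dim signals, and Krt19 and Lgals4 had the brightest probe of each list. The summed epithelial signal was 17.95 ± 0.17 (SD, n = 4) in REF, 17.91 ± 0.21 in C10, 17.83 ± 0.27 in CF and 17.80 ± 0.09 in I, differences no larger than the widest of these SDs. Cdx1 and Muc2 were not matched to a probe. The 4 small intestine markers tested passed the same filter, and no other tissue was measured, so passing it does not tell colon from other gut. Each piece held several cell types, so fewer cells of a type and less RNA per cell cannot be told apart.

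The stretches before the transcription starts of Scnn1g, Scnn1b and Atp12a are given because these were the most variable transcripts of the set. They come from RefSeq on the rat assembly GRCr8 and cover the 250 bases upstream of the start, read 5′ to 3′ on the strand of the gene. Capitals mark a GC box (GGGCGG or CCGCCC) or, in the last of them, TGTTCT, the reverse complement of AGAACA, the core that corticosteroid receptors recognise. Scnn1g lies at chr1:185735975-185736224 and Scnn1b at chr1:185861126-185861375, both on the plus strand, with listed starts 125.2 kb apart. Atp12a has 2 listed starts on the plus strand, at chr15:34558959-34559208 and chr15:34559495-34559744.
Scnn1g: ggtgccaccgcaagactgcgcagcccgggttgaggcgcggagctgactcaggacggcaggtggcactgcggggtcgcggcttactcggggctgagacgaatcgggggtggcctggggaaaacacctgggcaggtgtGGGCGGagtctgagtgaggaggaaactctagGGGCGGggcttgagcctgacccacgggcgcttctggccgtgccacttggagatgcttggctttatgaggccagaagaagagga
Scnn1b: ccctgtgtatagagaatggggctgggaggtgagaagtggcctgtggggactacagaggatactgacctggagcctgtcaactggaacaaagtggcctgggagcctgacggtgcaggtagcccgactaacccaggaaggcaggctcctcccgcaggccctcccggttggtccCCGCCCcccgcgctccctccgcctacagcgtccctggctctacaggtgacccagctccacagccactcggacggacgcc
Atp12a, the first start: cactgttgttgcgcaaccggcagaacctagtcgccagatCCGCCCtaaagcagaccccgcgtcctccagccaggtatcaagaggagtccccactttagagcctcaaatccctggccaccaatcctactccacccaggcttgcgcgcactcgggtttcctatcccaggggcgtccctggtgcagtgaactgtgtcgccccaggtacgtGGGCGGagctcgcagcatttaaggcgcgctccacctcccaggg
Atp12a, the second start: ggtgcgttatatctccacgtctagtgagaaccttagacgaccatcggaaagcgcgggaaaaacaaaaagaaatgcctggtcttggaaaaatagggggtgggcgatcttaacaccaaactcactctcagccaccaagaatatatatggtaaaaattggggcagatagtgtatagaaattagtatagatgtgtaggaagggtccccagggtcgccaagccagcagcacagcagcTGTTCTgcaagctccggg
The Scnn1g window held 2 GC boxes, whose first bases lay 114 and 83 bases before the start, and the Scnn1b window held 1, at 79 bases. The first start of Atp12a also had 2 GC boxes, at 211 and 43 bases, and the second start had none but carried TGTTCT at 18 bases before the start. Across 33469 rat promoters of the same length and with both strands read, the GC box was present in 30.5% and AGAACA in 17.5%. The posterior Hox motif CCAATAAA was present in 1.05% of promoters and was in none of the 7 windows listed for Scnn1b, Scnn1g, Atp12a and Sgk1. These matches describe the letters only, and binding was not measured.

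Scnn1g, which encodes the gamma subunit, was the only one of the 8 genes whose REF rats lay entirely below the rats of every other diet. In REF rats 1 to 4 its signal was 6.44, 6.49, 6.62 and 6.55, and in C10 rats 1 to 4 it was 6.64, 7.12, 6.75 and 10.65. CF rats stood at 7.49, 7.13, 6.79 and 7.59, and I rats at 6.65, 6.89, 7.10 and 6.88. The signal was well above background in 2 of 4 REF rats and in all 4 rats of each other diet, so the REF level lay close to the limit of the array. Within each dye the 2 REF rats were also the lowest. Once the fitted dye effect was removed REF rats ranged from 6.21 to 6.91 and stayed below CF rats, but overlapped the C10 rats (6.36 to 10.36) and the I rats (6.37 to 7.18). C10 rat 4 stood far above every other rat, and the other 3 C10 rats overlapped the I and CF rats.

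The fitted Scnn1g difference between C10 and REF was 1.10 on the log2 scale (SE 0.550), with only 2 of 4 REF rats well above background, limma's adjusted p = 0.329 and a 95% interval from -0.08 to 2.28. Without C10 rat 4 it was 0.34, and without C10 rat 1 it was 1.78. An exact two-sided permutation test of the 4 C10 against the 4 REF rats gave p = 0.0286, the smallest that 4 against 4 allows. Here and below, this test used signals not adjusted for dye and took no account of rats that shared an array. With the dye effect removed, C10 and I rats overlapped REF rats, as given above. The CF difference from REF was 0.39 (SE 0.595, adjusted p = 0.955, exact permutation p = 0.0286) and the I difference was 0.19 (SE 0.550, adjusted p = 0.981, exact permutation p = 0.0286). Without REF rat 4 these were 0.17 and -0.072, and without C10 rat 4, which enters the shared fit, they were 0.79 and 0.39, the ends of their ranges when each rat was left out. The 3 comparisons share the same 4 REF rats and are not independent of each other. Genes higher in the named diet with no overlap with REF made up 2.54% of all genes for C10, 1.12% for CF and 1.14% for I, and Scnn1g was 1 of 8 members in each. No member separated in this way in C10 against CF (1.58% of all genes), in C10 against I (3.33%) or in CF against I (0.623%). In the other direction, no member lay wholly below REF in C10 (2.03% of all genes), CF (0.779%) or I (0.93%). Nor did any lie wholly lower in C10 than in CF (1.96%) or I (2.47%), or lower in CF than in I (0.377%).

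Scnn1b, which encodes the beta subunit, was steady in REF and I rats and uneven in the cocoa groups. REF rats 1 to 4 gave 7.58, 7.55, 7.44 and 7.42, and C10 rats gave 7.54, 8.39, 7.50 and 9.52. CF rats gave 7.91, 7.73, 7.39 and 8.46, and I rats gave 7.27, 7.59, 7.73 and 7.66. C10 rats 2 and 4 and CF rat 4 were the highest of the 16, whereas C10 rats 1 and 3 lay within the REF range. The C10 difference from REF was 0.71 (SE 0.313, 1.63-fold, adjusted p = 0.268, exact permutation p = 0.171), and it was 0.35 without C10 rat 4 and 1.14 without C10 rat 1. The differences of CF and I from REF were 0.31 and 0.04, both within the error of the fit.

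Scnn1a, which encodes the alpha subunit that the channel needs to conduct, overlapped between all diets. Its signals were 10.37, 10.47, 10.19 and 10.35 in REF, 10.32, 10.91, 9.93 and 10.62 in C10, 10.39, 9.98, 10.07 and 10.85 in CF, and 10.07, 9.92, 10.48 and 10.20 in I. C10 rat 2 was the highest and I rat 2 the lowest. The C10 difference from REF was 0.18 (SE 0.178, adjusted p = 0.653), with a 95% interval from -0.20 to 0.57, and the CF and I differences were 0.12 and -0.12.

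**Figure D1:**
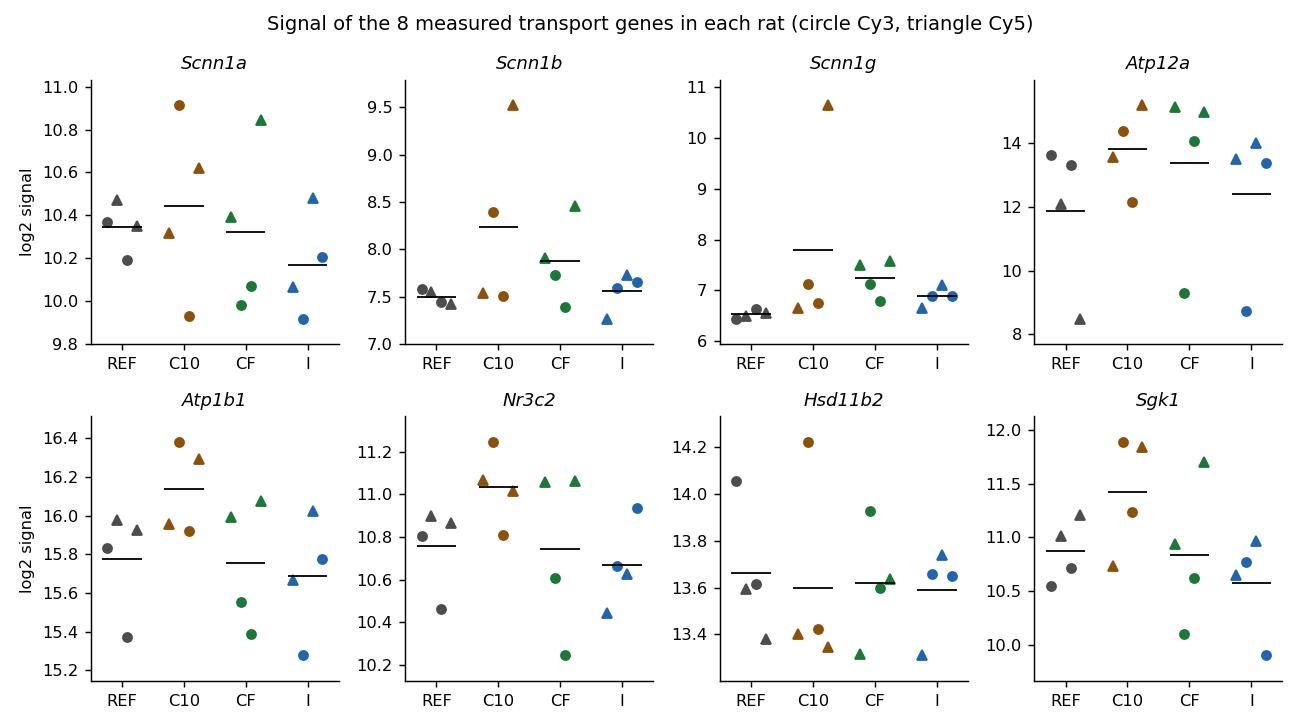
Log2 signal of each of the 8 measured genes in each of 16 rats by diet (REF, C10, CF and I), with circles for Cy3, triangles for Cy5 and a line at the mean of 4 rats. Scnn1g of C10 rat 4 stands at 10.65 above the other rats, and in Atp12a REF rat 4, CF rat 2 and I rat 2 stand at 8.50, 9.31 and 8.75 while the remaining 13 rats are at 12.08 or above.

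Atp12a had the widest range of the set and fell into separate clusters within diets. In REF rats 1 to 4 its signal was 13.61, 12.08, 13.31 and 8.50, and in C10 rats it was 13.57, 14.37, 12.13 and 15.17. CF rats gave 15.11, 9.31, 14.04 and 14.97, and I rats gave 13.50, 8.75, 14.01 and 13.38. REF rat 4, CF rat 2 and I rat 2 were low, at 9.31 or less, and a gap of 2.77 separated them from the other 13 rats. No C10 rat was in the low cluster, and the C10 range otherwise overlapped that of every diet.

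The C10 difference from REF in Atp12a was 2.27 (SE 1.45, 4.83-fold, adjusted p = 0.461, exact permutation p = 0.171), with a 95% interval from -0.84 to 5.38. It was 0.97 without REF rat 4, 1.52 without C10 rat 4 and 3.62 without REF rat 1, so single rats set its size. The CF difference from REF was 2.09 (SE 1.57, adjusted p = 0.889), with 0.44 without REF rat 4 and 3.73 without CF rat 2. The I difference was 0.80, with -1.19 without REF rat 4 and 1.87 without I rat 2. From the highest to the lowest rat, Atp12a spanned 102-fold. Its residual SD within diets was 2.74, higher than that of 99.98% of all genes, against a median of 0.16 over all genes. The residual SD was also higher than that of most genes for Scnn1g (99.3%), Scnn1b (97.4%) and Sgk1 (96.0%), and Scnn1a, Hsd11b2, Atp1b1 and Nr3c2 exceeded 89.6%, 82.0%, 84.7% and 78.8% of genes.

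Atp1b1 encodes the beta subunit with which the sodium pump reaches the membrane. REF rats 1 to 4 gave 15.83, 15.98, 15.37 and 15.92, and C10 rats gave 15.96, 16.38, 15.92 and 16.29. CF rats gave 15.99, 15.56, 15.39 and 16.08, and I rats gave 15.67, 15.28, 16.03 and 15.78. C10 rats lay at the upper end, with C10 rats 2 and 4 above every other rat, and the lower 2 C10 rats overlapped each of the other diets. The difference from REF was 0.38 (SE 0.153, 1.30-fold, adjusted p = 0.223, exact permutation p = 0.143), and 0.20 without C10 rat 2. The difference between C10 and I was 0.39 (SE 0.166, adjusted p = 0.365), and 0.24 without C10 rat 2.

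Nr3c2, the receptor for aldosterone, was 10.76 ± 0.20 (SD, n = 4) in REF, 11.03 ± 0.18 in C10, 10.74 ± 0.39 in CF and 10.67 ± 0.20 in I. C10 rats ranged from 10.81 to 11.24 and REF rats from 10.46 to 10.90, so the groups overlapped. The difference was 0.29 (SE 0.135, adjusted p = 0.296, exact permutation p = 0.0857), and it was 0.15 without C10 rat 2. On a second probe of the gene, which was not the one tested, every C10 rat (7.37 to 7.62) was above every REF rat (7.01 to 7.35). On the tested probes 2.54% of all genes separated in this way, and the difference on this second probe was 0.34 (SE 0.0882). Hsd11b2, which inactivates corticosterone in the rat and so leaves the receptor to aldosterone, was 13.66 ± 0.28 in REF, 13.60 ± 0.42 in C10, 13.62 ± 0.25 in CF and 13.59 ± 0.19 in I. Its C10 difference from REF was -0.03 (SE 0.144, adjusted p = 0.939), with a 95% interval from -0.34 to 0.28.

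Sgk1 was 10.55, 11.02, 10.71 and 11.21 in REF rats 1 to 4 and 10.73, 11.89, 11.24 and 11.84 in C10 rats. CF rats gave 10.94, 10.10, 10.62 and 11.70, and I rats gave 10.65, 10.77, 10.96 and 9.90. C10 rats 2 and 4 were the highest of all, C10 rat 1 was as low as the REF rats, and I rat 4 was the lowest. The largest Sgk1 difference was between C10 and I, at 1.03 (SE 0.289, 2.04-fold), with a 95% interval from 0.41 to 1.65, an adjusted p of 0.154 and an exact permutation p of 0.0857. C10 differed from CF by 0.72 (SE 0.267, adjusted p = 0.256) and from REF by 0.59 (SE 0.267, adjusted p = 0.281). Without C10 rat 1 all 3 passed the threshold, at 1.38 against I (adjusted p = 0.0137), 1.01 against CF (adjusted p = 0.0413) and 1.02 against REF (adjusted p = 0.0493). Without C10 rat 2 they were 0.78, 0.53 and 0.29, and without CF rat 2 the difference from CF was 0.47, none of which passed. I minus REF was -0.44 (SE 0.267, adjusted p = 0.924).

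Across the set, C10 rats tended to have the higher signals, but no gene passed the adjusted threshold of 0.05 in limma in any of the 6 comparisons. In C10 against REF, 7 of 8 members were higher and 1 was lower, beside 10674 higher and 9227 lower of all 19901 genes. The members had a median difference of 0.48, where the median over all genes was 0.01. None was called where 0.945% of all genes were, 66 up and 122 down. At an unadjusted p below 0.05, 3 members were higher in C10 than in REF (Scnn1b, Atp1b1 and Sgk1). Of all genes 17.1% passed that limit in either direction, 1735 of 19901 being higher and 1675 lower. In CF against REF 7 members were higher and 1 lower, with a median of 0.11, beside 10891 of all 19901 genes higher. In I against REF 4 were higher and 4 lower, with a median of 0.01, beside 10459 of all 19901 genes higher. No member was called in those 2 comparisons, where the calls over all genes came to 0% for CF and 0% for I, and none passed the unadjusted limit, where 6.34% and 5.71% of all genes did.

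The comparisons of C10 with REF, CF and I share the same 4 C10 rats, so they are not independent of each other. Between rats 3 of 28 pairs of members followed each other by rank after adjustment, so the signs of the members are not all independent. Against CF 7 of 8 members were higher in C10, with a median of 0.25, beside 10083 of all 19901 genes higher. No member was called, where 0.427% of all genes were. At the unadjusted limit 1 of 8 (Sgk1) passed, where 13.4% of all genes did in either direction (1201 higher and 1474 lower). Against I 7 of 8 were higher, with a median of 0.53, beside 10190 of all 19901 genes higher. No member was called, where 0.563% of all genes were. At the unadjusted limit 2 of 8 (Sgk1 and Atp1b1) passed, where 12.2% of all genes did in either direction (1226 higher and 1194 lower). All 8 members were higher in CF than in I, with a median of 0.22, beside 10243 of all 19901 genes higher. No member was called, where 0% of all genes were, and none passed the unadjusted limit, where 2.82% of all genes did. The rank product, a test on the ranks of genes by their differences between pairs of rats, gave a proportion of false positives below 0.05 for Scnn1g (0.0295) and Atp12a (0.000588) in C10 against REF and for Scnn1g (0.0230) and Atp12a (0) in CF against REF. It did so for Atp12a (0.011) and Sgk1 (0.0163) in C10 against I and for Atp12a (0.004) in CF against I, and for no member in the remaining comparisons. Of all genes it called 1.48% in C10 against REF, 0.673% in CF against REF, 1.1% in C10 against I and 0.186% in CF against I, and 0.362% in I against REF and 0.598% in C10 against CF, where no member was. It takes no account of dye or of the rats that shared an array. The study, which also called genes by rank product, lists Scnn1g, Scnn1b and Atp12a as up-regulated in C10 against REF. Here the rank product did not call Scnn1b in that comparison (0.127). By PCR in the study, the Scnn1g change in C10 did not reach significance.

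**Figure D2:**
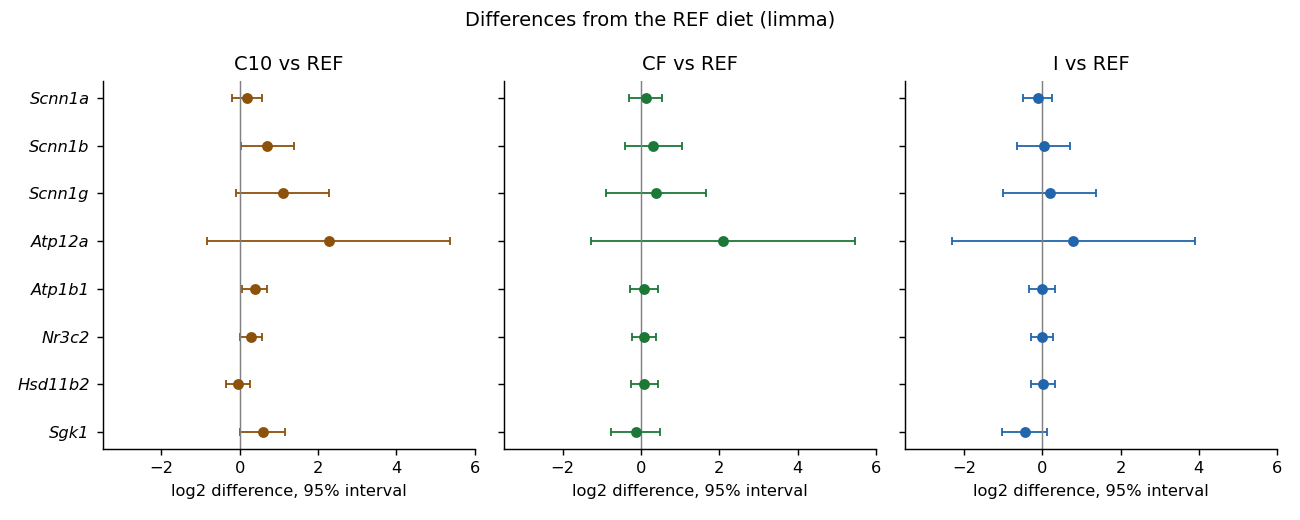
Fitted log2 difference from REF of C10, CF and I for each of the 8 genes, with bars for the 95% interval. The interval in C10 for Atp12a reaches from -0.84 to 5.38, and that for Hsd11b2 from -0.34 to 0.28.

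The beta and gamma subunits followed each other closely from rat to rat. Over 16 rats and with dye removed, Spearman's rho between Scnn1b and Scnn1g was 0.91 and Pearson's r was 0.91, each with p = 1e-05, the smallest that the permutations can give, and adjusted p = 0.00028 over 28 pairs. Leaving out C10 rats 2 and 4, the farthest from the median, left rho at 0.87 and r at 0.80. By dye and by array set, rho was 0.74 within Cy3, 0.79 within Cy5, 0.93 within arrays 1 to 4 and 0.86 within arrays 5 to 8, and it was 0.72 (adjusted p = 0.012) for deviations from the diet means. Scnn1g ranked first among 11921 other genes with a symbol in its likeness to Scnn1b.

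The alpha subunit followed the sodium pump subunit. Scnn1a and Atp1b1 had rho = 0.71 (r = 0.76, adjusted p = 0.0256), with 0.55 within Cy3, 0.93 within Cy5, 0.62 within arrays 1 to 4, 0.83 within arrays 5 to 8 and 0.65 without the 2 farthest rats. Atp1b1 and Nr3c2 had rho = 0.72 (r = 0.80, adjusted p = 0.0256). Scnn1a had rho = 0.53 with Scnn1b and rho = 0.24 with Scnn1g, neither of which passed after adjustment, although r with Scnn1b (0.63, adjusted p = 0.0487) did, and the difference between these values was not tested. All 28 rho values were above 0, with a median of 0.38, 12 had an unadjusted permutation p below 0.05, and 3 passed after adjustment. By Pearson's r 10 of the 28 pairs passed.

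**Figure D3:**
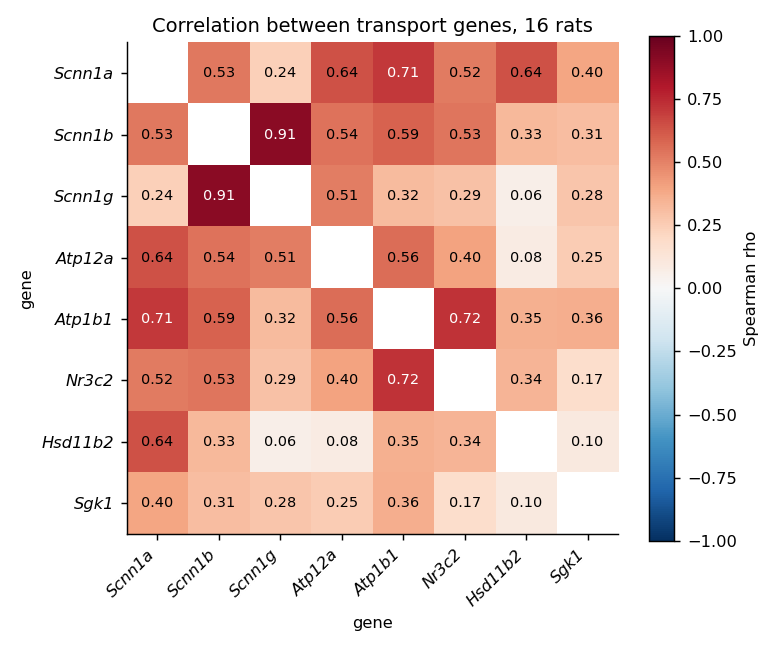
Spearman's rho between each pair of the 8 measured genes over 16 rats, from dye-adjusted log2 signals, with the colour scale running from -1 (blue) to 1 (red). Scnn1b and Scnn1g give 0.91, Atp1b1 gives 0.72 with Nr3c2 and 0.71 with Scnn1a, and the Atp12a values include the 3 rats that lie apart.

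The genes most like each transcript over the 16 rats were taken from 11921 genes with a symbol. For Scnn1a they included Flii (rho 0.86), Inpp5j (0.82), Rbm47 (0.81) and Gsn (0.81). For Scnn1b they were Scnn1g, Glcci1 (0.84), Ap3b1 (0.83), Rbm24 (0.83) and Syt12 (0.83), and for Scnn1g they were Scnn1b, Dpysl4 (0.88), Syt12 (0.87), Hbb-b1 (0.85) and Hbb (0.84). Syt12, which encodes a synaptotagmin, was thus near both channel subunits, and Hbb-b1 and Hbb are haemoglobin genes of red cells. For Atp12a they were Tgm3 (0.95), Itgb4 (0.92), Pm20d1 (0.91), Prdx5 (0.91) and Pde7a (0.89), a likeness that includes the 3 low rats.

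The posterior Hox genes mark position along the gut, and 1 of them, Hoxb13, separated the same 3 rats as Atp12a. Of 9 listed, 5 had a matched probe and were tested, and Hoxa10, Hoxa13, Hoxc10 and Hoxd11 had none. The brightest was Hoxb13, at 13.13, 12.36, 14.07 and 6.60 in REF rats 1 to 4, 14.05, 14.35, 13.42 and 14.88 in C10, 13.93, 9.71, 13.98 and 14.36 in CF, and 13.79, 9.96, 13.57 and 12.62 in I. REF rat 4, CF rat 2 and I rat 2 were lowest in Hoxb13 and lowest in Atp12a. Hoxa11 ran the other way, and these 3 rats gave its 3 highest values, 11.27, 11.18 and 10.87. In C10 against REF, Hoxb13 differed by 2.76 (adjusted p = 0.323), Hoxd13 by 1.01 (0.248), Hoxd10 by 0.998 (0.241) and Hoxa11 by -0.77 (0.211). Hoxd12 was well above background in 6 of 16 rats, 1 of them a REF rat and 2 of them C10 rats, so no difference is given for it, although it enters the level over the 5 genes.

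The summed posterior Hox signal was 13.39, 12.82, 14.19 and 11.51 in REF rats 1 to 4 and 14.15, 14.48, 13.64 and 15.04 in C10 rats. It was 14.10, 11.82, 14.12 and 14.49 in CF and 13.94, 11.73, 13.74 and 13.03 in I. REF rat 4, I rat 2 and CF rat 2 stood at 11.51, 11.73 and 11.82, and the next rat stood at 12.82. By the mean dye-adjusted level of the 5 genes these rats were also the lowest, at 7.54, 8.56 and 8.48. No such gap followed there, with REF rat 2 at 8.77. The mean level of the 5 genes was highest in C10, at 9.55 ± 0.55, against 8.69 ± 0.80 in REF, 9.19 ± 0.49 in CF and 8.93 ± 0.26 in I. The part of position along the colon in the differences between diets was not tested.

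Over all 16 rats the relation of Atp12a with the posterior Hox level was the only 1 of 8 to pass by rank (adjusted p = 0.00024), but 3 rats lie apart in Atp12a and are also the lowest in posterior Hox, so no coefficient is given across the gap. Within the 13 rats above the gap, Atp12a had rho = 0.74 (permutation p = 0.0057, adjusted p = 0.0152 over 8 relations) and r = 0.65 with the mean dye-adjusted posterior Hox level. This was weaker without REF rat 2 and C10 rat 4, the farthest from the median, at rho = 0.57 (permutation p = 0.0713) and r = 0.55. It was 0.26 within Cy3 (n = 6, exact permutation p = 0.658), 0.86 within Cy5 (n = 7, exact permutation p = 0.0238), 0.86 within arrays 1 to 4 and 0.54 within arrays 5 to 8. It did not pass on the 11 rats without those 2, which does not show whether it rested on them. The choice of rats by Atp12a itself narrowed the range of Atp12a, and the p-values within the 13 rats take no account of that choice.

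Scnn1b and Scnn1g had rho of 0.49 and 0.50 with the posterior Hox level over all 16 rats, with adjusted p of at least 0.0839, and r of 0.67 (adjusted p = 0.0416) and 0.64 (adjusted p = 0.0795). For both, rho was 0.26 once C10 rat 4 and REF rat 4 were left out. For Scnn1g it was -0.29 within Cy3 and 0.95 within Cy5, and for Scnn1b -0.24 and 0.74, so the relation did not hold within both dyes. Over all rats Sgk1 had rho = 0.52, with 0.74 within arrays 1 to 4 and 0.10 within arrays 5 to 8. For Sgk1 it was 0.69 within Cy3, 0.29 within Cy5 and 0.58 without C10 rat 4 and REF rat 4. Hsd11b2 had rho = -0.10 over all rats. Within the 13 rats above the gap Scnn1b, Scnn1g and Sgk1 had rho of 0.68, 0.82 and 0.74 (adjusted p = 0.0278, 0.00832 and 0.0152). None of these genes passed by rank over all 16 rats, so the call was made by leaving out 3 rats chosen by Atp12a. The adjusted p-values take no account of that choice, and the 3 rats left out were also the lowest in posterior Hox. Of those rats CF rat 2 and I rat 2 had dye-adjusted Scnn1g of 7.41 and 7.18 beside a low posterior Hox level. REF rat 4, lowest in posterior Hox, had 6.26. In the 13 rats rho was 0.03 within Cy3 and 0.75 within Cy5 for Scnn1b, 0.37 and 0.96 for Scnn1g, and 0.94 and 0.46 for Sgk1. With REF rat 2 and C10 rat 4 also left out, it was 0.52 for Scnn1b (permutation p = 0.106). It was then 0.71 for Scnn1g (permutation p = 0.0181) and 0.80 for Sgk1 (permutation p = 0.00475). Over 19896 genes and 16 rats the median rho was 0.003. The share of genes with a lower rho was 99.8% for Atp12a, whose value includes the 3 low rats, 96.3% for Atp1b1, 94.9% for Sgk1, 94.1% for Scnn1g, 93.7% for Scnn1b, 93.4% for Scnn1a, 84.0% for Nr3c2 and 37.8% for Hsd11b2.

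**Figure D4:**
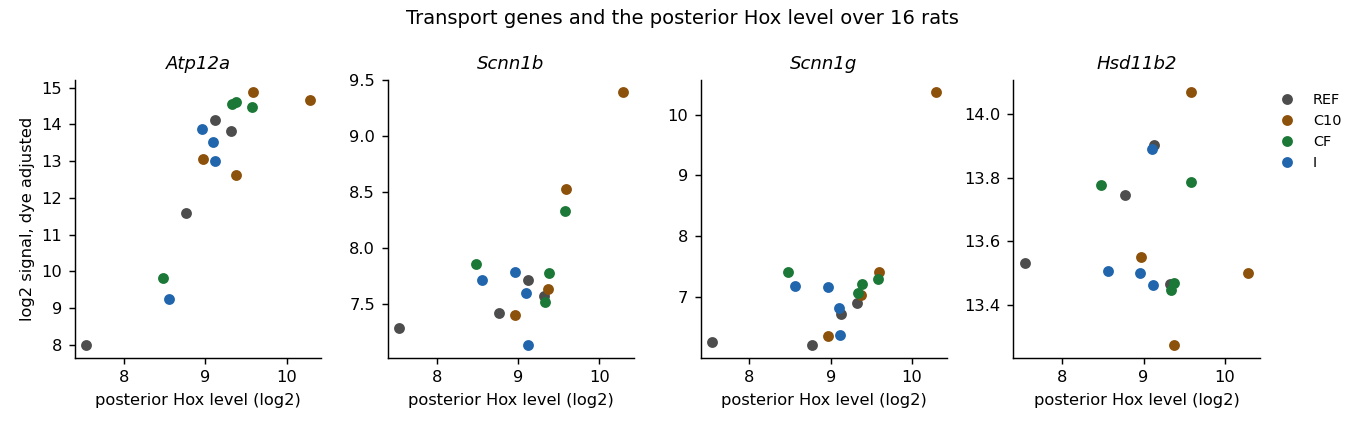
Dye-adjusted log2 signal of Atp12a, Scnn1b, Scnn1g and Hsd11b2 against the mean dye-adjusted log2 signal of 5 posterior Hox genes, with a point for each of 16 rats coloured by diet. In Atp12a 3 rats lie apart at low signal, and Hsd11b2 shows no trend (rho = -0.10).

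With the posterior Hox level as a term of the fit, a setting chosen after seeing the data, the Atp12a difference between C10 and REF was -0.69 (SE 0.684, adjusted p = 0.758) instead of 2.27. The Scnn1g difference was 0.28, Scnn1b 0.22, Sgk1 0.39, Atp1b1 0.26 and Nr3c2 0.24. When the 3 rats lowest in posterior Hox were left out, Atp12a was 0.82 (SE 0.580), Scnn1g 0.91, Scnn1b 0.59 and Sgk1 0.64. No member was called in either setting. The posterior Hox level was itself measured after the diets, and the study lists Hoxd13, Hoxd10 and Hoxb13 as up-regulated in C10. A term for it can remove a difference made by diet as well as one made by position, and these cannot be told apart here.

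**Figure D5:**
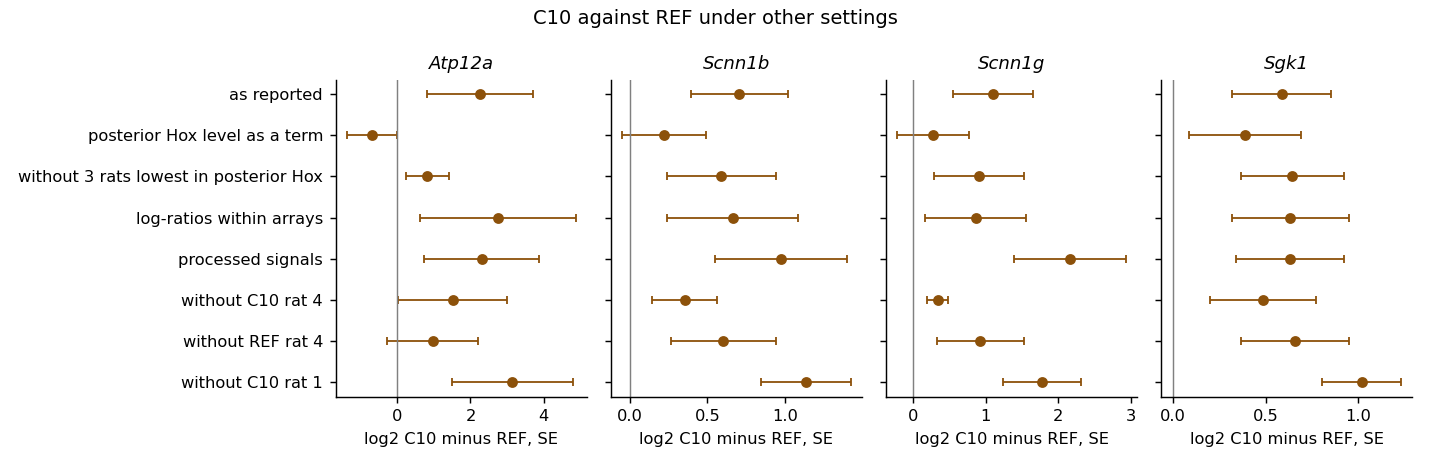
Difference between C10 and REF in log2 signal for Atp12a, Scnn1b, Scnn1g and Sgk1 under 8 settings of the analysis, with bars for the standard error. Atp12a moves from 2.27 to -0.69 when the posterior Hox level is a term of the fit, and Sgk1 stays above 0.

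The proteases and kinases that act on the channel, the other pump genes and the corticosteroid genes were examined as lists. No gene of these lists was called by limma in any of the 6 comparisons. Among those named from the lists, the rank product gave a proportion of false positives below 0.05 in C10 against REF for Fxyd6 (0.0390) and Fkbp5 (0.0146), where 1.48% of all genes were below it. Of 8 channel proteases and inhibitors, 6 were higher and 2 lower in C10 than in REF, with a median of 0.04. The largest positive difference was that of Spint1, an inhibitor of the serine proteases that cleave the channel. It was 11.79, 11.89, 11.76 and 12.05 in REF and 12.29, 12.27, 12.37 and 12.21 in C10. CF rats gave 12.13, 11.90, 11.41 and 12.13, and I rats 11.94, 12.04, 12.13 and 12.10. Every C10 rat was above every REF rat, as in 2.54% of all genes. The difference was 0.40 (SE 0.096, adjusted p = 0.064, exact permutation p = 0.0286), which passed without CF rat 3 (0.43, adjusted p = 0.0112). Serpine2, a serine protease inhibitor, differed by -0.53 (adjusted p = 0.083), and by -0.60 without REF rat 3 (adjusted p = 0.0474).

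Among 10 kinase and ubiquitin genes tested, Sgk3 and Rictor of the 12 listed having no matched probe, 8 were higher and 2 lower in C10 than in REF. At the unadjusted limit 2 passed, both higher, beside 17.1% of all genes in either direction (1735 of 19901 higher). Stk39, the kinase that phosphorylates sodium-coupled chloride transporters, was 9.62, 9.80, 9.29 and 9.69 in REF and 9.81, 10.26, 9.99 and 10.41 in C10. All 4 C10 rats were above the REF rats, as in 2.54% of all genes. The difference was 0.54 (SE 0.151, adjusted p = 0.096), which passed without C10 rat 1 (0.75, adjusted p = 0.0297). Nedd4, a ubiquitin ligase related to Nedd4l, differed by -0.34 (adjusted p = 0.362), by -0.54 without REF rat 3 (adjusted p = 0.0446) and by -0.14 without C10 rat 1.

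Of 11 sodium pump and FXYD genes tested, 3 were higher and 8 lower in C10 than in REF, with a median of -0.29. At the unadjusted limit 4 passed, all lower, beside 17.1% of all genes in either direction (1675 of 19901 lower). Fxyd4 of the 12 listed had no matched probe here. The study lists Fxyd4 as up-regulated in C10, and these counts leave it out. Fxyd6, a small membrane protein that modulates the sodium pump, was 12.80, 12.77, 12.44 and 12.83 in REF and 10.47, 12.08, 12.36 and 12.37 in C10. CF rats gave 12.50, 12.84, 12.32 and 12.48, and I rats 12.08, 12.60, 12.40 and 12.55. C10 rat 1 was lowest of all and every C10 rat was below the REF rats, as in 2.03% of all genes, with a difference of -1.03 (SE 0.269, adjusted p = 0.080). Fxyd5, another member of the family, differed by 0.23 (adjusted p = 0.735).

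C10 rat 1 was also low in smooth muscle markers, whose summed signal was 15.74 in that rat and 17.91, 17.94 and 18.05 in the other C10 rats. In REF rats it was 18.93, 18.14, 17.79 and 18.05. All 6 of the listed smooth muscle genes were lower in C10 than in REF, Actg2 being the brightest, with a median of -0.89. Of these 6, 5 passed the unadjusted limit, beside 17.1% of all genes in either direction (1675 of 19901 lower), and none was called (smallest adjusted p = 0.177). Fxyd6 was moreover lowest in the same rat, and the part of muscle in these values was not tested. The Fxyd6 difference was -0.51 without C10 rat 1, and it passed the threshold without C10 rat 4 (-1.22, adjusted p = 0.04998) or REF rat 3 (-1.20, adjusted p = 0.0365).

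Of the gastric proton pump, the tested subunit Atp4a differed by 0.00 between C10 and REF. Of 4 sodium-proton exchange genes 2 were higher and 2 lower. Slc9a2, an apical sodium-proton exchanger, had every C10 rat above every REF rat, as in 2.54% of all genes, with a difference of 0.56 (SE 0.187, adjusted p = 0.156). Nherf2, a scaffold for these exchangers, differed by -0.26. Of 7 potassium channel genes 4 were higher and 3 lower, with Kcnk5 at 0.32 and Kcne3 at -0.31. At the unadjusted limit 1 higher and 1 lower gene passed, beside 17.1% of all genes. In 1 of the 7, not Kcnk5, every C10 rat was above every REF rat, as in 2.54% of all genes.

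Corticosteroid receptors, enzymes and targets counted 5 higher and 3 lower of 8 in C10 against REF, and 3 of the higher and 1 of the lower passed the unadjusted limit, beside 17.1% of all genes. In CF against REF 7 of 8 were higher and 3 of them passed that limit (6.34% of all genes in either direction, 620 of 19901 higher). In I against REF 7 of 8 were higher and 2 passed (5.71% in either direction, 585 of 19901 higher). Fkbp5, a chaperone that glucocorticoids induce, was 8.86, 9.27, 9.36 and 9.20 in REF and 9.91, 9.46, 10.21 and 10.41 in C10. CF rats gave 10.09, 10.01, 9.64 and 9.23, and I rats gave 10.05, 9.68, 9.84 and 9.61. Every C10 rat and every I rat was above every REF rat, as in 2.54% of all genes for C10 and 1.14% for I. CF rat 4 lay within the REF range. The C10 difference was 0.70 (SE 0.170, adjusted p = 0.066, exact permutation p = 0.0286), and its adjusted p was 0.0412 without REF rat 3, 0.0463 without C10 rat 2 and 0.0357 without CF rat 4. Hsd11b1, which regenerates active glucocorticoid, differed by -0.39 (adjusted p = 0.085), with every C10 rat below the REF rats, as in 2.03% of all genes.

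Further markers of cells and positions were read beside these genes. The summed small intestine signal, with Fabp2 the brightest of 4 tested, was 13.005 in REF rat 4, 12.79 in I rat 2 and 12.67 in CF rat 2, the highest of the 16 rats and the same 3 rats that were lowest in Atp12a and posterior Hox. The other 13 rats were at 12.51 or less. This sum was mostly Fabp2, and the mean dye-adjusted log2 level over the 4 genes did not single out these rats. It was highest in C10 rat 1 (9.37), followed by REF rat 4 (8.94) and REF rat 1 (8.74), and was 8.50 in I rat 2 and 8.27 in CF rat 2. Surface colonocyte markers, with Krt20 the brightest of 6, summed to 16.84 ± 0.50 (SD, n = 4) in REF, 16.74 ± 0.35 in C10, 16.75 ± 0.49 in CF and 16.89 ± 0.42 in I. Squamous markers, with Tp63 the brightest of 5, summed to 12.03 ± 0.15 in REF, 11.97 ± 0.13 in C10, 12.18 ± 0.30 in CF and 12.26 ± 0.20 in I. This sum was mostly Tp63, while the squamous keratins Krt5, Krt14, Krt15 and Krt4 had means of 6.23, 6.45, 6.51 and 6.76 in REF, and Krt5 was well above background in 1 of 4 REF rats. The 2 tested anterior Hox genes, with Hoxb4 the brighter, summed to 8.02 ± 0.13 in REF, 8.04 ± 0.26 in C10, 8.30 ± 0.15 in CF and 8.15 ± 0.12 in I. In CF against REF 1 of these 2 genes was higher at the unadjusted limit, where 6.34% of all genes passed in either direction (620 of 19901 higher). No gene of these lists was called in C10 against REF, and their part in the differences of the transport genes was not tested.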

How the data were processed

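RNA of 16 rats was hybridised in pairs to 8 Agilent rat arrays, and scanner signals of both dyes were deposited as intensity values from Feature Extraction 10.7.3.1, per the file headers. The background-subtracted processed signal, also an intensity made by the authors' scanner software, was used in an alternative. The deposited table of 8 per-array value columns for the whole series was not used, since its columns could not be tied to single rats.

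Intensities were background corrected in limma 3.58.1 (R 4.3.3, statmod 1.5.0) with normexp and an offset of 50, normalised within arrays by spatial (span 0.4) and intensity (span 0.3) loess, and between arrays by Aquantile. Spots of a probe were averaged. Of 30367 probes, 22539 exceeded background clearly in 4 or more of 16 rats, and the brightest probe of a gene was kept, leaving 19901 genes, 11922 with a symbol. Diet and dye were fitted in lmFit with array as a random block (correlation 0.42), followed by eBayes and Benjamini-Hochberg adjustment, with calls at 0.05. Groups of 4 were also compared by exact two-sided permutation of signals not adjusted for dye, with no account of shared arrays. Correlations used dye-adjusted signals, 100000 permutations or, for 8 rats or fewer, all orderings. The code was tested on simulated data.

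The lowest signal well above background was 5.96 to 6.21 in Cy3 and 5.82 to 6.07 in Cy5, and 68.6% to 75.3% and 74.3% to 83.9% of spots were above it. No spot of the 8 genes was saturated. The number of arrays limits the precision.

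Groups came from the label of each dye channel. Rat numbers follow the order of the arrays and pair no samples. The titles give 16 different sample codes, each in 1 channel, and they were taken as 16 rats. The study's methods mention dye swaps, but no code appears in both dyes here. The members and lists were chosen with earlier results of these data known. Named from the lists were genes called in any comparison and those with the largest positive and negative difference in C10 against REF, the gene with the brightest probe in each marker list, every posterior Hox gene, and the 5 genes of highest rho with each channel subunit and Atp12a. A gene of this likeness list and a marker list are not reported here. The alternatives changed offset, signal, filter, probe rule, between-array step, dye term, array block, array set, fold limit and test (rank product, 100 permutations), or left out each rat. Terms for posterior Hox, leaving out 3 rats, and the 13 rats above the gap in Atp12a were chosen after seeing the data.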

Additional observations from a re-analysis of the deposited data

Results flagged for a closer look

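In 68 groups of 4 rats, a single rat stood apart by Dixon's test at the 95% level in 6, and chance alone would mark about 1 in 20. Of the 32 groups of the 8 transport genes, 3 were among them. Scnn1g of C10 rat 4 was 10.65, and the nearest other C10 rat was 7.12. Atp12a of I rat 2 was 8.75, and the nearest I rat was 13.38. Hsd11b2 of C10 rat 2 was 14.22, and the nearest C10 rat was 13.42.

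The other 3 were marker sums. The summed posterior Hox signal of CF rat 2 was 11.82, and the nearest CF rat was 14.10. The summed smooth muscle signal of C10 rat 1 was 15.74, and the nearest C10 rat was 17.91. The summed small intestine signal of CF rat 2 was 12.67, and the nearest CF rat was 11.24. CF rat 2 was low in posterior Hox and in Atp12a (9.31). Its small intestine sum was mostly Fabp2, and its mean over the 4 small intestine genes, 8.27, was below that of all 4 REF rats. Whether these values share a source was not tested.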

How the results depend on the processing

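Of 1769 values of 61 gene differences under 29 settings, 1642 kept their direction and side of the threshold, 96 changed sign with both values within 1 SE of 0, 21 passed newly and 10 reversed, that is, changed sign with the value as reported or the new value beyond 1 SE. Reversed with the posterior Hox term were Scnn1a (-0.020) and Atp12a (-0.69) in C10 against REF and Atp12a in C10 against CF (-1.28) and C10 against I (-0.76), and without the 3 rats lowest in posterior Hox, Atp12a in C10 against CF (-1.16). Leaving out single rats gave Scnn1a from -0.076 to 0.35 in C10 against REF, Scnn1b from -0.15 to 0.67, Scnn1g from -0.44 to 1.15 and Atp12a from -1.80 to 0.95 in C10 against CF, and Scnn1g from -0.043 to 1.47 in C10 against I. The cause was not tested.

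Members called were 0 throughout, but 2 by rank product in C10 against REF, 2 in CF against REF, 2 in C10 against I and 1 in CF against I, and 0 to 1 without single rats in C10 against REF, CF and I. All genes called in C10 against REF were 188, with 68 without the dye term, 0 by log-ratios within arrays, 39 at 2-fold, 295 by rank product, 49 with the posterior Hox term, 46 without the 3 rats and 35 to 683 without single rats. In C10 against CF the count was 85, with 23 without the dye term, 0 by log-ratios, 42 with the array set as a term, 20 at 2-fold, 2 without the 3 rats and 3 to 200 without single rats. In C10 against I it was 112, with 63 without the dye term, 0 by log-ratios, 20 with the array set, 33 at 2-fold, 219 by rank product, 47 with the posterior Hox term, 7 without the 3 rats and 22 to 153 without single rats. It was 0 in CF against REF (134 by rank product), I against REF (72) and CF against I (37), and 0 to 1 without single rats.

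Of 756 correlations under alternatives, 742 kept their direction and 688 also their side of the threshold. Relations with posterior Hox that passed were 1 of 8, with 4 at offset 0, 4 in the 13 rats above the gap and 1 to 3 without single rats. Pairs that passed were 3 of 28, with 10 without dye adjustment, 5 with processed signals, 5 at offset 0, 6 in the 13 rats and 1 to 8 without single rats. The labels give no replicate numbers that pair rats across diets, and the pairs on shared arrays are those of the log-ratios. The slide was not run as a block because all arrays were on 1 slide. With 4 rats a diet, the 95% interval of the log2 difference between C10 and REF ran from -0.08 to 2.28 in Scnn1g and from -0.84 to 5.38 in Atp12a.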
